A study of Mus musculus with 23 samples.

Results

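The Cdh15 and Impact regions were followed in the DNA methylation data of hybrid mouse embryos. Cdh15 encodes M-cadherin, a cell adhesion protein of skeletal muscle, and Impact encodes a protein that restrains the stress kinase GCN2. Members were the windows of the deposited tables whose midpoint lay in chromosome 8:122845000-122872000 (Cdh15) or chromosome 18:12965000-12997000 (Impact) of GRCm38. The E6.5 table held 16 such windows of 333984, 9 at Cdh15 and 7 at Impact. The E7.5 tables held 17 of 402812, 9 at Cdh15 and 8 at Impact. Each member window held 42 to 61 CpGs of the reference sequence, so short windows are CpG-dense.

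At a maternal germ line differentially methylated region (gDMR), the oocyte methylates the locus and the sperm does not. After fertilisation the zinc finger protein ZFP57, which binds a short methylated motif, and its partner TRIM28 help to keep the maternal allele methylated while the rest of the genome is demethylated. When the embryo implants and methylation is laid down across the genome, the paternal allele has to stay unmethylated for the imprint to last. The Impact gDMR lies at the start of the gene, which is expressed from the paternal allele in the mouse, whereas the Cdh15 gDMR lies inside the gene body.

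Methylation was measured by post-bisulphite adaptor tagging (PBAT), in which adaptors are joined after bisulphite treatment. Reciprocal crosses of C57BL6/Babr and CAST/Ei mice (CAST from here on) were used, with the mother written first (B6/CAST and CAST/B6). Epiblast, which forms the embryo, and extra-embryonic ectoderm (ExE), which contributes to the placenta, were separated by hand. At E6.5 the DNA came from micrococcal nuclease digested chromatin inputs of pooled embryos, with 3 B6/CAST and 3 CAST/B6 epiblast libraries and 2 ExE libraries of each cross. The matDKO/CAST group (2 epiblast and 3 ExE libraries) came from B6/129 females, floxed for Dnmt3a and Dnmt3b and carrying Zp3-cre, mated with CAST males. Zp3-cre acts in the growing oocyte, so that both de novo methyltransferases are lost there and the embryo receives a CAST copy of each gene from its father. The effect of the 129 background of these mothers cannot be told apart from that of the deletion. The headings of 5 of the 15 E6.5 columns say that they were reimported, namely 1 of 3 B6/CAST epiblast, both B6/CAST ExE and 2 of 3 matDKO/CAST ExE libraries, and what was done again is not given in the sources used here. In wild type ExE at E6.5 the cross and the reimport therefore cannot be told apart. At E7.5 each library was the epiblast or ExE of a single wild type embryo, 2 libraries for each cross and tissue, and reads were also divided by parental allele. Whether an epiblast and an ExE library with the same number came from the same embryo is not given in the sources used here.

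Mean methylation over autosomal windows was 63.9% to 78.3% in the wild type epiblast and 50.5% to 64.5% in the wild type ExE at E6.5, 51.1% to 53.0% in matDKO/CAST epiblast, and 37.2% to 39.3% in matDKO/CAST ExE. At E7.5 it was 71.7% to 75.6% in the epiblast and 56.1% to 59.2% in ExE. The windows that hold the starts of Elf5, Pou5f1 and Nanog were used to check the tissues. At E7.5 the 4 ExE libraries were lower than the 4 epiblast libraries at Elf5 (60.8% to 69.1% against 80.4% to 92.6%) and higher at Pou5f1 (37.2% to 42.1% against 11.4% to 25.0%) and Nanog (51.6% to 62.6% against 37.4% to 45.5%). At E6.5 the groups did not overlap at Pou5f1 (15.9% to 77.8% in ExE, 1.79% to 10.0% in the epiblast) and overlapped at Elf5 and Nanog. The tables give no coverage, so the depth behind each percentage is unknown and no counting interval is given. The p-values measure the spread between these libraries.

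For each locus the DMR was the window with its midpoint in the H3K4me3 peak that the study lists as overlapping the maternal gDMR, measured in all wild type libraries of the day. At E7.5 the Cdh15 DMR window was chr8:122864944-122866368 (1425 bp, 48 CpGs), wholly inside Cdh15 (ENSMUSG00000031962, 122847966 to 122867397, plus strand) and spanning exons 11 to 13 with their introns. The Impact DMR window was chr18:12972172-12973421 (1250 bp, 47 CpGs), inside Impact (ENSMUSG00000024423, 12955852 to 12992950, plus strand), covering the end of exon 1 of the main transcript and the start of the first intron. At E6.5 the windows were chr8:122865109-122866971 (51 CpGs, exons 11 to 14) and chr18:12973239-12973853 (615 bp, 50 CpGs, first intron).

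The 300 bases with most CpGs in the Cdh15 DMR window are shown because the allelic difference at this locus falls on coding sequence. The stretch is chr8:122865077-122865376 of GRCm38 on the plus strand, read from the RefSeq copy of the genome. It runs from coding exon 11 through the intron into coding exon 12, and capitals mark its 21 CpGs, of the 48 in the window.

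Cdh15 DMR: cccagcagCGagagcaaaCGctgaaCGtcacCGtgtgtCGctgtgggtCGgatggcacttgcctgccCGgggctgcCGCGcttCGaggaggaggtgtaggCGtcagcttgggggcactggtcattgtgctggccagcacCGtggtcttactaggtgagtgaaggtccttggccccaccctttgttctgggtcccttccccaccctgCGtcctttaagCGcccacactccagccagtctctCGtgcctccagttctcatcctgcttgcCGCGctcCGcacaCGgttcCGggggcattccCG

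The motif TGCCGC, the core recognised by ZFP57 when methylated, was searched on both strands. It occurred 2 times in the Cdh15 DMR window, both within the stretch above, and 3 times in the Impact DMR window. Of all 3555 autosomal E7.5 windows within 10% of the length of the Cdh15 window, 40.1% held the motif, as did 38.3% of the 2872 windows matched to Impact. A match is given as a description of the sequence.

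The first question was how the alleles differed at E7.5. At the Impact DMR window the maternal allele was methylated and the paternal allele nearly unmethylated in all 8 libraries. Maternal methylation in the epiblast was 88.5% and 65.7% in B6/CAST and 92.0% and 95.5% in CAST/B6. The paternal allele of the same libraries was at 0%, 0%, 0% and 5.25%. In ExE the maternal values were 90.3% and 78.8% in B6/CAST and 73.6% and 88.0% in CAST/B6, and the paternal values were 8.07%, 12.8%, 8.55% and 2.20% in the same order. No paternal value came within 50 points of any maternal value, in either cross. The maternal minus paternal difference was 84.1 ± 12.4 points in the epiblast and 74.8 ± 10.8 points in ExE (SD, n = 4 each), positive in 4 of 4 libraries in both tissues. The exact sign-flip test gave p = 0.125 for each, which is the smallest p that 4 libraries allow.

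At the Cdh15 DMR window the maternal allele was about as methylated as at Impact, but the paternal allele carried more methylation and varied widely. Maternal methylation in the epiblast was 88.2% and 83.7% in B6/CAST and 83.3% and 94.4% in CAST/B6. In ExE it was 89.4% and 73.5% in B6/CAST and 90.5% and 89.4% in CAST/B6. The maternal allele thus lay above 70% in every library. The paternal allele in the epiblast was at 26.5% and 42.5% in B6/CAST and at 22.2% and 78.8% in CAST/B6. In ExE it was at 17.3% and 28.4% in B6/CAST and at 26.2% and 81.3% in CAST/B6. CAST/B6 replicate 2 was therefore the highest library on the paternal allele in both tissues, and its paternal values were above the lowest maternal value of the other libraries (73.5%). The parental difference was 44.9 ± 21.7 points in the epiblast and 47.4 ± 28.6 points in ExE (SD, n = 4 each; exact sign-flip p = 0.125 for each, the smallest possible), and it was 15.6 and 8.07 points in the epiblast and ExE of CAST/B6 replicate 2. Without that replicate, chosen after its values were seen, the difference was 54.7 ± 11.7 points in the epiblast and 60.5 ± 13.9 points in ExE (SD, n = 3 each).

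**Figure D1:**
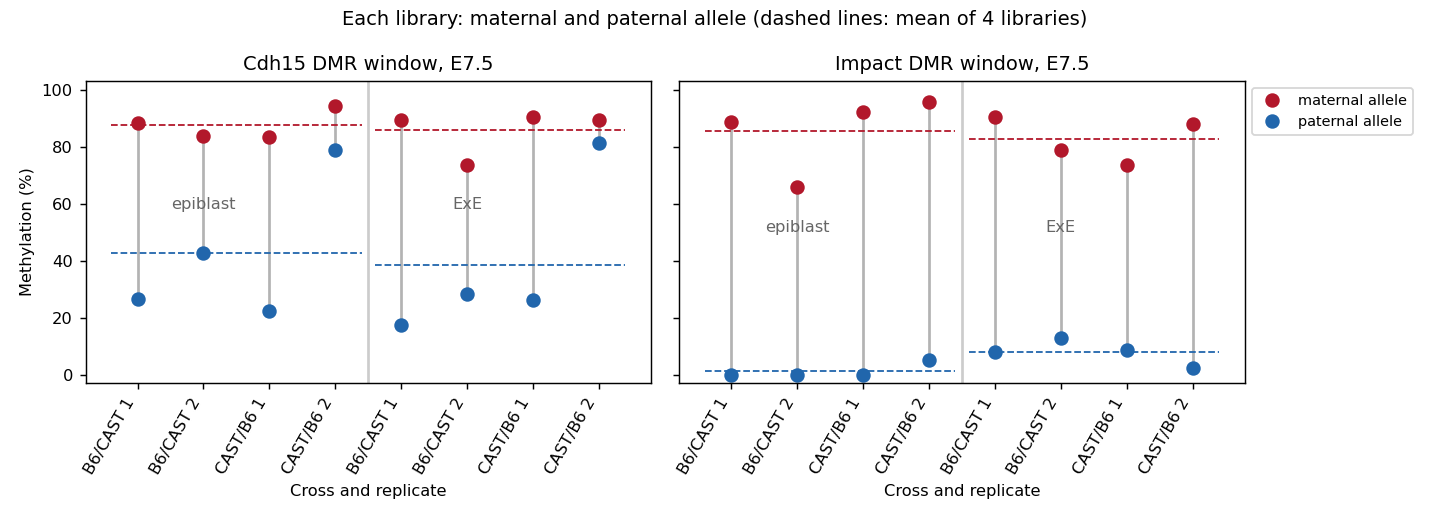
Methylation (%) of the maternal (red) and paternal (blue) allele at the E7.5 Cdh15 and Impact DMR windows, for each library of each cross and tissue; dashed lines are means of 4 libraries. Paternal values at Impact run from 0% to 12.8%, whereas at Cdh15 CAST/B6 replicate 2 stands at 78.8% in the epiblast and 81.3% in ExE.

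The limma test across all autosomal windows (percent scale, cross as covariate) was used to set the members beside the rest of the genome. In ExE, 1 of the 16 member windows tested passed an adjusted p of 0.05, beside 0.00722% of 318358 windows (0.00503% higher and 0.00220% lower on the maternal allele). For the epiblast it was 1 of 13, beside 0.00838% of 238529 (0.00629% higher and 0.00210% lower). Both calls were at Impact and higher on the maternal allele. In ExE it was chr18:12973422-12974011, with a difference of 83.3 ± 4.06 points (SE; Benjamini-Hochberg adjusted p = 0.0270). In the epiblast it was the DMR window itself (84.1 ± 5.13 points, adjusted p = 0.0332), which in ExE had an adjusted p of 0.0890. Leaving out any of the 4 libraries of a tissue left no member past the threshold. No Cdh15 window passed: the DMR window gave 47.4 ± 9.72 points in ExE (unadjusted p = 0.00268, adjusted p = 0.777) and 44.9 ± 8.06 points in the epiblast (unadjusted p = 0.00117, adjusted p = 0.941).

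The maternal excess was largest in 2 adjoining windows at Cdh15, neither of which passed the test across all windows, and in 2 adjoining windows at Impact. In the Cdh15 window just upstream of the DMR (chr8:122862197-122864939, exons 8 to 10) the maternal allele was higher by 30.9 ± 7.27 points in ExE (4 of 4 libraries) and 27.1 ± 7.16 points in the epiblast (3 of 4 libraries; SE; limma adjusted p = 0.777 and 0.941). The paternal allele of that window was at 75.8%, 36.1%, 40.9% and 57.7% in the epiblast, in the order B6/CAST 1 and 2 and CAST/B6 1 and 2, and at 28.1%, 34.6%, 38.5% and 84.4% in ExE. CAST/B6 replicate 2 was again the highest in ExE, but B6/CAST replicate 1 was the highest in the epiblast, where its maternal allele was at 75.6%. In the Cdh15 window just downstream (chr8:122866437-122869697, exon 14) the alleles were close, with differences of 0.698 points in ExE and 0.830 points in the epiblast. In the window beyond the gene's end the maternal allele was higher by 14.9 points in the epiblast (4 of 4 libraries, adjusted p = 0.941) and differed by -2.10 points in ExE. The window with the annotated start of Cdh15 was higher on the maternal allele by 10.6 ± 3.95 points in ExE and 16.3 ± 6.22 points in the epiblast (SE; 4 of 4 and 3 of 4 libraries), with adjusted p of 0.777 and 0.941. At Impact, the window next to the DMR (chr18:12973422-12974011, first intron) had paternal values from 0% to 6.22% in the 7 libraries measured and maternal values from 71.4% to 100% in 8. The window after it (chr18:12974015-12975660) had values for 4 maternal alleles, all of B6/CAST, from 48.3% to 85.4%, and for 6 paternal alleles, 5 of them from 3.64% to 12.0% and that of B6/CAST epiblast replicate 1 at 46.2%. In the 4 windows from chr18:12975707 to the end of the region both alleles were between 69.8% and 100% in every library measured.

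**Figure D2:**
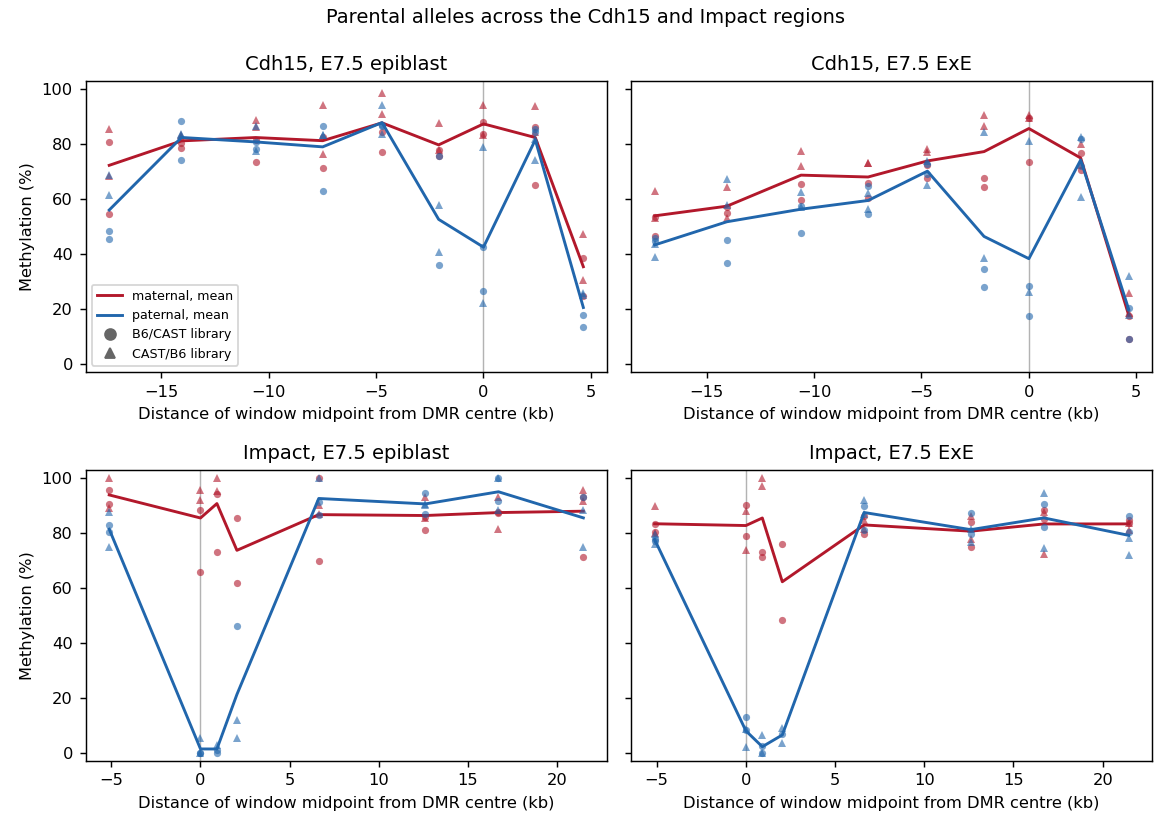
Methylation (%) of the maternal (red) and paternal (blue) allele in the E7.5 windows of the Cdh15 and Impact regions against the distance of the window midpoint from the DMR centre (kb); points are libraries, circles B6/CAST and triangles CAST/B6, and lines join means of the libraries measured. The mean difference between the alleles is largest at the DMR and its neighbour, and some flanking windows keep a smaller maternal excess (16.3 points at the start of Cdh15 in the epiblast); the 4 Cdh15 windows between the gene's first window and the upstream neighbour of the DMR are lower in ExE than in the epiblast on both alleles.

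Parental origin and strain can be separated because the crosses are reciprocal. By limma the term for strain, B6 against CAST, called 0 of 16 members (ExE) and 0 of 13 (epiblast), beside 0% of all windows for either tissue (unadjusted p under 0.05 in 27808 and 15868 windows). The most extreme member was chr18:12973422-12974011 in ExE, with an unadjusted p of 0.0234 and an adjusted p of 0.544. At the Cdh15 DMR the paternal allele averaged 22.8% (B6/CAST) and 53.8% (CAST/B6) in ExE and 34.5% and 50.5% in the epiblast, 2 libraries each, and the replicates of CAST/B6 lay further apart than the crosses.

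The second question was whether the paternal allele gained methylation in one tissue. For Cdh15 it did not differ in a direction that held over the libraries. The paternal mean was 38.3 ± 29.1% in ExE and 42.5 ± 25.7% in the epiblast (SD, n = 4 each), a difference of -4.20 points (limma SE 14.0, adjusted p = 0.805; exact permutation p = 0.743, with 0.0286 the smallest possible). The ExE minus epiblast difference was -11.6 points in B6/CAST and 3.24 points in CAST/B6. Leaving out 1 library moved it between -18.5 and 7.91 points, and it was above 0 without CAST/B6 epiblast replicate 2 (7.91) or B6/CAST ExE replicate 1 (2.79). Without CAST/B6 replicate 2 in both tissues the means were 24.0 ± 5.86% in ExE and 30.4 ± 10.7% in the epiblast (SD, n = 3 each; exact permutation p = 0.500, smallest possible 0.100).

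At the Impact DMR the paternal allele was higher in ExE, 7.91 ± 4.37% against 1.31 ± 2.62% (SD, n = 4 each). The difference of 6.60 points missed the threshold (limma SE 3.87, adjusted p = 0.158; exact permutation p = 0.0571, smallest possible 0.0286), and the groups overlapped through CAST/B6 replicate 2, the highest epiblast library and the lowest ExE library. It was 10.4 points in B6/CAST and 2.75 points in CAST/B6. With the mean over all windows of the region it was -4.01 points, and with library means subtracted 23.2 points. In the neighbouring window the paternal allele was at 0% to 2.82% in 3 epiblast libraries and at 0% to 6.22% in 4 ExE libraries. The genome as a whole was lower in ExE, with a median window difference of -16.1 points on the paternal allele, and an allele near 0% has no room for such a loss.

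The maternal alleles of the DMR windows were close between the tissues in their means, with differences of opposite sign in the crosses. The ExE minus epiblast difference was -1.74 points at Cdh15 (85.7 ± 8.15% against 87.4 ± 5.18%; limma adjusted p = 0.762) and -2.74 points at Impact (82.7 ± 7.84% against 85.4 ± 13.5%; exact permutation p = 0.743; SD, n = 4 each). By cross it was -4.53 (B6/CAST) and 1.06 points (CAST/B6) at Cdh15, and 7.42 and -12.9 points at Impact. The change of the parental difference itself was 2.47 points at Cdh15 (limma SE 13.5, adjusted p = 1.00) and -9.33 points at Impact (SE 7.57, adjusted p = 0.948), with exact permutation p of 0.857 and 0.20. With 0 of 13 member windows called for this change by limma, against 0% of 237650 windows and 12567 at an unadjusted p under 0.05, neither locus passed the test, and the standard errors of 13.5 and 7.57 points mean that changes well above that size could have been missed. Leaving out 1 library moved the change at Impact between -15.5 and -6.09 points and that at Cdh15 between -7.30 and 15.6 points. The maternal differences moved between -3.34 and 2.33 points (Cdh15) and between -9.32 and 0.615 points (Impact).

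The windows around the DMRs were compared between the tissues in the same way. On the paternal allele 4 of 9 Cdh15 windows were lower in ExE by limma, and 0 of 4 Impact windows changed; of 268065 windows 60.1% were called, 59.6% lower in ExE. The 4 windows lie upstream of the DMR, between chr8:122849687 and chr8:122862109, and were lower by 30.7, 24.5, 19.6 and 17.7 points (adjusted p = 0.00306, 0.00251, 0.0164 and 0.00718, in order from 5' to 3'). On the maternal allele 6 of 9 Cdh15 windows and 0 of 7 Impact windows were lower in ExE, against 59.0% of 262332 called lower and 59.5% called. These were the same 4 windows, the window with the gene start (-18.4 points, adjusted p = 0.0348) and the window beyond the gene's end (-17.7 points, adjusted p = 0.018). Without B6/CAST ExE replicate 1 the maternal count was 3. The Cdh15 DMR window and its upstream neighbour were not among the calls on either allele, and whether they differed from the other windows was not tested. Counted on both alleles together, 7 of 9 Cdh15 windows and 4 of 8 Impact windows were lower in ExE, all 11 in that direction, against 82.9% of 383556 called lower and 84.2% called. The Cdh15 shares were near or below those of all windows and the Impact shares below them; no test was made of either. The calls included the upstream neighbour (-14.0 points) but neither DMR window. The largest loss was 23.5 ± 2.23 points (SE; adjusted p = 9.10e-05) in chr8:122849687-122853509, the first intron of Cdh15. At the DMR windows the both-allele difference was -7.61 points for Cdh15 (61.3 ± 15.4% against 68.9 ± 15.5%) and 2.27 points for Impact (42.5 ± 2.08% against 40.2 ± 5.76%; SD, n = 4 each), with adjusted p of 0.418 and 0.501. Leaving out 1 library moved these differences between -15.1 and -1.03 points and between 0.534 and 4.81 points. The Cdh15 window beyond the gene's end was low throughout, at 17.6% to 35.7% on both alleles together.

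CAST/B6 replicate 2 was then compared with replicate 1 of its cross, a contrast chosen after its values were seen. In this cross the paternal allele is the B6 allele. At the Cdh15 DMR window it was higher in replicate 2 by 56.6 points in the epiblast and 55.1 points in ExE. Of 291243 windows of the genome with the 4 values, 2 were higher by 50 points or more in both tissues, 0.000687%, and the Cdh15 DMR was among them. As many points lower in both tissues were 0.000343% of windows, and in B6/CAST 0.000342% of 292601 windows were higher by that much in replicate 2. The maternal allele of CAST/B6 gave 0% of 273545. In B6/CAST the same contrast at the Cdh15 DMR gave 16 points in the epiblast and 11.1 points in ExE. On the maternal allele of CAST/B6 it gave 11.1 points in the epiblast and -1.14 points in ExE. The upstream neighbour at Cdh15 was higher on the paternal allele of replicate 2 by 16.8 points in the epiblast and 45.9 points in ExE. The other Cdh15 windows differed by at most 21.9 points in either tissue. Over the other 12 maternal gDMRs the contrast ranged from -17.5 to 12.1 points in the epiblast and from -25.6 to 8.60 points in ExE. The median paternal methylation over those 12 loci in CAST/B6 replicate 2 was 33.8% in the epiblast and 24.7% in ExE, beside 33.6% and 28.9% in replicate 1. These values describe the window for which the contrast was chosen and are no test. The gap between CAST/B6 replicate 2 and the next library was 0.642 of the range over the 4 libraries in the epiblast and 0.827 in ExE, and Dixon's gap test was passed in neither tissue. The values of the other gDMRs are means over up to 7 windows, and the epiblast and ExE libraries of this number are not known to share an embryo. The part that a low number of reads on this allele could play was not tested, since the tables hold no coverage.

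**Figure D3:**
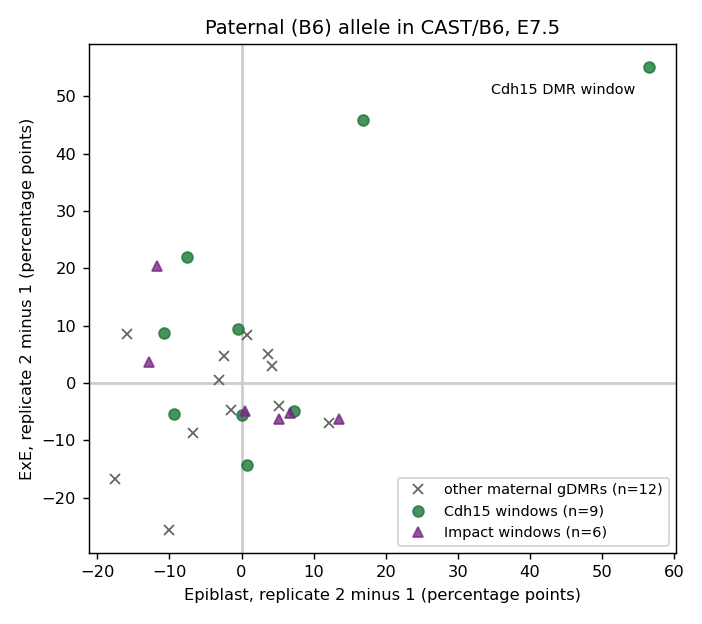
Paternal methylation in CAST/B6 at E7.5, replicate 2 minus replicate 1 in percentage points, in the epiblast (horizontal) against ExE (vertical), for 9 Cdh15 windows, 6 Impact windows measured in the 4 libraries and the 12 other maternal gDMRs. The Cdh15 DMR window is the only point above 50 points on both axes.

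At E6.5 the alleles were not separated in the deposited table. At the Cdh15 DMR the wild type epiblast was at 86.2%, 83.3% and 77.9% in B6/CAST and 76.8%, 83.9% and 94.4% in CAST/B6. Wild type ExE was at 55.6% and 44.1% in B6/CAST and 84.4% and 68.2% in CAST/B6. The 3 other ExE libraries lay below every epiblast library, and the highest ExE library, at 84.4%, was above 4 of the 6. ExE was lower by 20.7 points (63.1 ± 17.3% against 83.8 ± 6.38%, SD, n = 4 and 6; limma SE 6.03, adjusted p = 0.0126; exact permutation p = 0.0476). The difference was -32.6 points in B6/CAST, whose ExE libraries were reimported, and -8.76 points in CAST/B6, where none was, and the exact p rose above 0.05, to between 0.0635 and 0.119, when any library but CAST/B6 ExE replicate 1 was left out. With every window that overlaps the peak, weighted by the overlap, the Cdh15 difference was -14.5 points, above an exact p of 0.05. The median difference over all windows tested was -16.6 points. Relative to each library's mean, which removes about that much, the Cdh15 difference was -4.14 points (exact permutation p = 0.514).

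The Impact DMR moved the other way. The wild type epiblast was at 49.7%, 26.7% and 19.1% in B6/CAST and 32.4%, 43.2% and 16.7% in CAST/B6, and ExE was at 54.4% and 48.8% in B6/CAST and 77.9% and 56.0% in CAST/B6. ExE was higher by 28.0 points (59.3 ± 12.8% against 31.3 ± 13.2%, SD, n = 4 and 6; limma SE 7.47, adjusted p = 0.00837; exact permutation p = 0.0190). Of the ExE libraries 3 lay above every epiblast library and the fourth, at 48.8%, lay below only 1 of them. The difference was 19.8 points in B6/CAST and 36.2 points in CAST/B6, and between 21.8 and 31.7 points when each library was left out. With every window that overlaps the peak, weighted by the overlap, it was 17.1 points and with the mean of the region 4.50 points, both above an exact p of 0.05. Few windows were higher in ExE: of the 12 member windows tested this was the only 1 called so, beside 0.663% of 250886 windows tested, and 4 were called lower, beside 59.6% (60.3% called in all). In the next window (chr18:12973854-12974626) 5 epiblast libraries were at 16.7% to 46.6% and 3 ExE libraries at 37.7% to 59.1%. In the window before the DMR (chr18:12968484-12973238) ExE was higher by 14.2 ± 7.28 points (SE; adjusted p = 0.108).

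The days are set side by side without a test, since their windows and library types differ. The E7.5 values were carried to the E6.5 DMR windows as means of the overlapping E7.5 windows, weighted by the number of shared CpGs. The overlapping windows held 100% of the CpGs of each E6.5 DMR window, but their values also include CpGs outside it. At Impact both alleles together then gave 39.6 ± 4.16% in the E7.5 epiblast and 38.0 ± 8.10% in E7.5 ExE (SD, n = 4 each), beside 31.3% and 59.3% at E6.5. At Cdh15 they gave 72.9 ± 10.3% and 64.2 ± 10.8%, beside 83.8% and 63.1% at E6.5. At Impact the tissue means lay 28.0 points apart at E6.5 and close together at E7.5, a change that was not tested. At Cdh15 the E7.5 ExE libraries were at 58.6% and 58.3% in B6/CAST and 59.5% and 80.3% in CAST/B6, so that the mean of 64.2% lies above 3 of the 4.

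**Figure D4:**
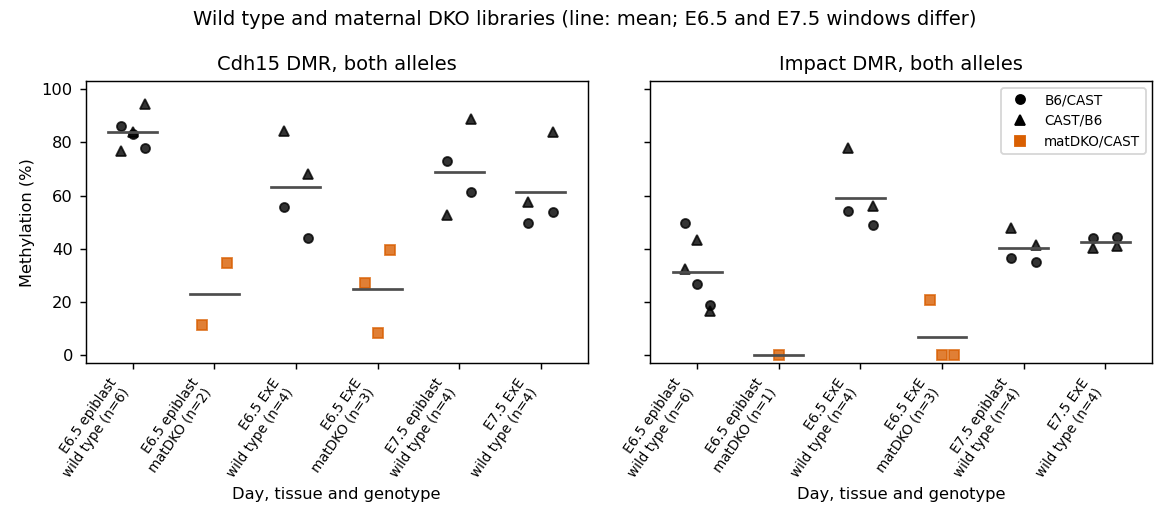
Methylation (%) of both alleles together at the Cdh15 and Impact DMR windows in each library; black circles are B6/CAST, black triangles CAST/B6 and orange squares matDKO/CAST, and lines are group means. The matDKO/CAST libraries lie below every wild type library of their tissue at E6.5, and the E6.5 wild type ExE mean at Impact (59.3%) is above that of the epiblast (31.3%).

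The matDKO/CAST embryos were used to ask how much methylation was present when the oocyte lacked both de novo methyltransferases. Wild type pooled both crosses, and the limma fits had no term for cross. Cdh15 DMR methylation in the epiblast was 11.4% and 34.8%, below all 6 wild type libraries. The difference was -60.7 points (23.1 ± 16.5%, n = 2, against 83.8 ± 6.38%, n = 6; SD; limma SE 7.16, adjusted p = 0.00334; exact permutation p = 0.0714, the smallest possible). In ExE the matDKO/CAST libraries were at 27.3%, 8.33% and 39.5%, below the 4 wild type libraries, with a difference of -38.0 points (25.0 ± 15.7%, n = 3, against 63.1 ± 17.3%, n = 4; SD; limma SE 10.6, adjusted p = 0.0390; exact permutation p = 0.0571, the smallest possible). Relative to each library's mean the differences were -39.3 points in the epiblast and -19.8 points in ExE, where the groups then overlapped (exact permutation p = 0.114). With B6/CAST alone as wild type the ExE difference was -24.8 points (3 libraries against 2, exact permutation p = 0.20, the smallest possible). Methylation was thus above 0% at this locus in all 5 matDKO/CAST libraries. The alleles were not separated, so which allele carried it and when it was laid down are unknown.

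At the Impact DMR 3 of the 4 matDKO/CAST libraries measured were at 0%. In ExE the values were 21.0%, 0% and 0%, a difference of -52.3 points from wild type (6.99 ± 12.1%, n = 3, against 59.3 ± 12.8%, n = 4; SD; limma SE 8.61, adjusted p = 0.0333; exact permutation p = 0.0571, the smallest possible). In the epiblast replicate 3 was at 0% and replicate 1 had no value in this window, so that 1 library stood against 6 and no limma value was given. The difference there was -31.3 points (exact permutation p = 0.286, the smallest possible). The next window (chr18:12973854-12974626) was at 0% in all 3 matDKO/CAST ExE libraries, and was not tested because a wild type library lacked a value. The tissue difference within matDKO/CAST was 1.96 points at Cdh15 and 6.99 points at Impact.

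Methylation was lower in matDKO/CAST over much of the genome, with a median difference over all windows tested of -20.8 points in the epiblast and -18.7 points in ExE. Wild type here pools both crosses, and library means in E6.5 ExE were 50.5% and 50.6% in B6/CAST and 64.5% and 61.8% in CAST/B6. The part of the cross in these medians was not tested. The medians over the member windows were -23.4 and -27.7 points. In the epiblast 5 of 9 member windows tested were lower than in wild type, 4 of 5 at Cdh15 and 1 of 4 at Impact, beside 47.7% of 192419 windows, a share near that of the members. In ExE 8 of 15 were lower, 5 of 9 at Cdh15 and 3 of 6 at Impact, beside 26.3% of 254322; the ExE count fell to 0 when any of 5 of the 7 libraries was left out, namely either CAST/B6 replicate or any matDKO/CAST replicate. The epiblast count fell to 3 without matDKO/CAST replicate 1, and both counts were 0 with B6/CAST alone as wild type. No member window was higher. Of the 5 Cdh15 windows tested in the epiblast the DMR had the largest loss, followed by the window with the gene start (-41.2 ± 11.1 points, SE here and for the windows that follow, limma adjusted p = 0.0176), the first intron (-31.2 ± 6.50 points, adjusted p = 0.00774) and exons 5 to 7 (-20.8 ± 6.82 points, adjusted p = 0.0333, at the median of all windows). The Cdh15 window upstream of the DMR (chr8:122862730-122865108, exons 8 to 11) was measured in 1 matDKO/CAST epiblast library, at 20.6%, and was not tested there. At Impact the window over exons 6 to 8 fell by 29.7 ± 8.46 points (adjusted p = 0.0209). Of the windows tested in ExE the Impact DMR had the largest loss, and the same Cdh15 window upstream of the DMR followed, at -44.6 ± 9.28 points (adjusted p = 0.0333). The windows over exons 9 to 11 of Impact were at 62.5% to 84.1% in matDKO/CAST, and the last of them was called lower in ExE (-18.3 ± 5.41 points, adjusted p = 0.0426), close to the median of all windows.

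The reciprocal crosses differed at E6.5 in 2 of 12 member windows, both at Cdh15 and higher in CAST/B6, beside 14.7% of 250886. This share is close to that of all windows, of which 36734 were called higher in CAST/B6 and 37 lower, with a median difference of 9.86 points. They were chr8:122862730-122865108 (84.6% against 64.0%, 20.6 ± 4.71 points, SE, limma adjusted p = 0.0268) and chr8:122859757-122862325 (77.9% against 62.4%, adjusted p = 0.0466). Both B6/CAST ExE libraries but no CAST/B6 library were reimported. In the epiblast the first window was at 56.1%, 71.9% and 75% in B6/CAST, the last of them reimported, and at 84.4%, 83.3% and 91.5% in CAST/B6. The second was at 65.7%, 63.9% and 78.0% against 79.9%, 84.5% and 75.7%, with the groups overlapping through the reimported library at 78.0%. The count was 0 without B6/CAST epiblast replicate 1, CAST/B6 epiblast replicate 3, either B6/CAST ExE replicate or CAST/B6 ExE replicate 1, and 1 without CAST/B6 epiblast replicate 1 or 2 or CAST/B6 ExE replicate 2. The DMR windows gave 12.1 points at Cdh15 (adjusted p = 0.147) and 5.48 points at Impact (adjusted p = 0.578). At E7.5 0 of 17 member windows were called by limma, as was 0% of 383556, with 26938 at an unadjusted p under 0.05. The lowest unadjusted p among members was 0.00305, for chr8:122862197-122864939, again higher in CAST/B6 (79.4% against 61.6%, adjusted p = 0.694).

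Last, the loci were placed among the other maternal gDMRs that the study lists at H3K4me3 peaks, 12 with a complete window at E7.5 and 13 at E6.5. At E7.5 the Impact paternal allele in the epiblast (1.31%) was below all 12, which ran from 1.72% to 73.0% with a median of 28.7%, and in ExE (7.91%) it was below 10 of 12. The Cdh15 paternal allele was above 9 of the 12 in both tissues, and without CAST/B6 replicate 2 (chosen after its values were seen) above 7 in the epiblast (30.4%) and above 4 in ExE (24.0%). The 3 loci above it were H13, Nespas and Slc38a4. Their windows showed small parental differences, at -0.730, 7.36 and 17.4 points in the epiblast and 4.70, 7.91 and 24.0 points in ExE, so that the upper end of the range comes from loci with little allelic difference in these windows. The range of the Cdh15 paternal allele over libraries, 56.6 points in the epiblast and 64.0 points in ExE, was wider than at all 12, where it reached at most 24.1 and 28.7 points. Without CAST/B6 replicate 2 it was 20.3 and 11.1 points, wider than at 10 and 7 of the 12. Mean maternal methylation at both loci was within the range of the others, while the maternal range over epiblast libraries at Impact (29.8 points) was wider than at all 12 (at most 19.6). The values of the other loci are means of up to 7 windows at E7.5 and up to 10 at E6.5, and those of Cdh15 and Impact come from 1 window. The part of this in the levels, ranks and ranges, and in the likeness below, was not tested. At E6.5 the wild type epiblast mean was higher at Cdh15 (83.8%) and lower at Impact (31.3%) than at all 13 others, which ran from 44.6% to 76.9% with a median of 67.8%. The E6.5 Cdh15 window reaches further downstream than the E7.5 one. Carried to it, mean paternal methylation in the E7.5 epiblast was 54.0%, beside 42.5% in the E7.5 window. Kcnq1ot1, with a paternal allele at 1.72% in the E7.5 epiblast, was at 72.7% in the E6.5 epiblast and 73.0% in E6.5 ExE on both alleles together. The ExE minus epiblast difference at E6.5 was lowest at Cdh15 (-20.7 points) and highest at Impact (28.0 points) of the 15, and the other 13 lay between -13.1 and 0.368 points. In matDKO/CAST ExE Impact (6.99%) was below 12 of the 13 and Cdh15 (25.0%) above 8.

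By the root mean square difference over the 16 allele values of the 8 E7.5 libraries, the gDMR most like Impact was Peg3, a paternally expressed zinc finger gene (6.73 points), then Kcnq1ot1, a paternally expressed long non-coding RNA (11.6 points), and Inpp5f (16.5 points). Those most like Cdh15 were Trappc9 (18.4 points), Airn, the antisense RNA of Igf2r (19.9 points), and Mest (21.8 points). Without CAST/B6 replicate 2, left out after its values were seen, the order for Cdh15 was Mest (9.36 points), Inpp5f (9.53 points) and Trappc9 (10.8 points) over 12 values, with Airn at rank 5 (12.2 points), while Peg3 (7.67 points) and Kcnq1ot1 (13.0 points) stayed nearest to Impact, followed by Mest (17.7 points). Paternal methylation was 3.93% in the epiblast and 3.46% in ExE at Peg3, and 38.4% and 29.5% at Trappc9, with ranges over the 8 libraries that stayed between 0.521% and 8.11% and between 25.6% and 43.6%. Cdh15 and Impact were 31.6 points apart and each ranked 10 of 13 in likeness to the other; without CAST/B6 replicate 2 they were 19.0 points apart, with ranks of 8 and 6.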

How the data were processed

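PBAT libraries of E6.5 (15) and E7.5 (8) hybrid embryos were analysed. Per the study's methods and the submitters' processing notes, the authors trimmed reads with Trim Galore (0.4.4 in the notes), aligned them with Bismark (0.20.0 in the notes; the methods name other versions of these tools) to GRCm38 with strain SNPs masked, and split E7.5 reads by allele with SNPsplit; matDKO/CAST reads had extra steps for 129 alleles. Values deposited in 3 tables are percent methylation in each window, without coverage, so depth is unknown. The bisulphite conversion at E7.5 was repeated because the first was poor. Members, DMR rule and lists were chosen with earlier results of these data known.

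DMR values were compared with two-sided exact permutation and sign-flip tests. All autosomal windows measured in every library of a comparison were tested with limma 3.58.1 (R 4.3.3, percent scale), adjusted by Benjamini-Hochberg at 0.05. Cross was a covariate except in the matDKO fits, which pooled both wild type crosses without a cross term. The fits were tested on simulated data. Of 100 windows changed by 30 points, the matDKO fits recovered 7 (epiblast) and 1 (ExE), and the fit for the change of the parental difference 11. The other fits recovered 53 to 95. At 60 points all fits recovered 87 to 100. Genes came from GENCODE on GRCm38. Python 3.11.15 was used otherwise. The column of 1 B6/CAST epiblast library at E6.5 has a number the labels lack and was used as an unnumbered replicate. Named loci were both members, the other listed maternal gDMRs and the 3 nearest to each. Alternatives were other DMR definitions, subtraction of library means, logit scale, eBayes settings, no cross term, a replicate block, missing values, B6/CAST alone and leaving out each library.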

Additional observations from a re-analysis of the deposited data

Results flagged for a closer look

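At the Cdh15 DMR the maternal allele of B6/CAST ExE replicate 2 (73.5%) was below the other 3 ExE libraries, which lay between 89.4% and 90.5%. At the Impact DMR the paternal allele of CAST/B6 epiblast replicate 2 (5.25%) was the only epiblast value above 0%. With the other 3 at 0%, any value above 0% passes the gap test, and 5.25% is inside the range of the ExE libraries (2.20% to 12.8%). Both were picked out by Dixon's gap test in groups of 4, which chance passes in about 1 of 20 groups, and 16 groups were tested. The paternal Cdh15 value of CAST/B6 ExE replicate 2 (81.3%) came close without passing, with a gap to the next library of 0.827 of the range.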

How the results depend on the processing

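Of 85 other computations of the DMR values, 68 kept their direction and side of the threshold, as did 110 of 128 values with a library left out and all 12 without CAST/B6 replicate 2, which were chosen after seeing the data. For counts of member windows, 40 of 55 other computations and 68 of 91 with a library left out stayed within 1.5 times. The coverage minimum could not be tried because the tables hold no coverage, and depth limits every value to an unknown degree. The causes of the other changes below were not tested.

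Subtracting the library mean adds about the genome-wide loss in ExE to every window (median differences over all windows of -16.1 points for the paternal and -16.0 for the maternal allele), so changes of sign under it follow from its construction. With the library mean subtracted, the E7.5 ExE minus epiblast difference became 12.4 points (Cdh15 paternal), 14.9 (Cdh15 maternal), 8.71 (Cdh15 both alleles), 13.9 (Impact maternal), 23.2 (Impact paternal) and 18.6 (Impact both alleles), and that of Cdh15 at E6.5 became -4.14. With the mean over the region it was -12.5 (Cdh15 maternal), -14.3 (Cdh15 both alleles), -4.01 (Impact paternal) and -4.58 (Impact both alleles) at E7.5 and 4.50 for Impact at E6.5. With overlapping windows weighted, it was -3.18 for Impact on both alleles at E7.5, and -14.5 (Cdh15) and 17.1 (Impact) at E6.5. Leaving out a library gave -18.5 to 7.91 (Cdh15 paternal), -3.34 to 2.33 (Cdh15 maternal), -7.30 to 15.6 (change of the Cdh15 parental difference), -9.32 to 0.615 (Impact maternal) and -27.8 to -14.4 (Cdh15 at E6.5).

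Member windows called for the parental difference were 0 in ExE and 0 in the epiblast with eBayes trend and robust settings, 0 and 0 with a missing value allowed, 2 in ExE without the cross term, 0 in the epiblast on the logit scale, and 0 to 0 in both tissues with a library left out. On the logit scale they were 0 for crosses at E6.5, 2 for matDKO in the epiblast and 0 for matDKO in ExE. For matDKO they were 9 in the epiblast with a missing value allowed, and 0 in the epiblast and 0 in ExE with B6/CAST alone. Leaving out a library gave 3 to 6 (maternal allele by tissue), 0 to 2 (crosses at E6.5), 3 to 7 (matDKO epiblast) and 0 to 8 (matDKO ExE).

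Same-numbered libraries deviated together weakly, with correlations of 0.0486 to 0.0503 at E7.5 and -0.00165 to 0.0251 at E6.5, so the numbers were not taken to pair samples. With a replicate block the E6.5 tissue difference was -12.9 points at Cdh15 and 21.0 at Impact, over 3 shared numbers, where the smallest exact p is 0.250. Member windows called with the replicate block were 2 for tissue at E6.5, 0 for matDKO in the epiblast and 0 for matDKO in ExE, and no other call changed. For Impact in matDKO epiblast no block was possible, since replicate 1 has no value.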
